A study of Brachypodium distachyon with 4 samples.

Results

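BRADI_2g60970v3 and BRADI_2g61050v3 are loci of Brachypodium distachyon chromosome 2, close in locus number with 8 listed loci between them. Their leaf transcripts were far less abundant in the mutant jmj1-1 than in the wild type, and the loci around them are described here in locus order. Members were all loci of the deposited table whose identifier begins BRADI_2g and carries a locus number from 60700 to 61400. They came to 93 of 35125 listed loci and of 7631 on chromosome 2. The window was chosen by the measured counts of these 2 loci, which were far lower in jmj1-1, so their own difference between genotypes is given as a description, with no test. The other 91 loci entered by number alone.

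Brachypodium distachyon is a small temperate grass used as a laboratory relative of wheat and barley. Leaf mRNA of the inbred line Bd21-3 (2 libraries) was set against that of jmj1-1, a mutant in the same Bd21-3 background (2 libraries). All plants were at leaf stage 4 on day 17, grown with 20 h of light and 4 h of dark and harvested 10 h after lights on. The labels give 1 mutant line, do not describe the mutation, and do not state if replicate libraries were made from different plants. The spread behind each p-value is that between these libraries and may be technical.

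Proteins named JMJ usually carry a JmjC domain, the catalytic fold of a large family of histone demethylases, enzymes that take methyl groups off histone tails and so alter the state of chromatin. Histone marks can cover a single gene or a stretch of neighbouring genes, and gene order is for that reason a common way to lay out the transcripts of a chromatin mutant. In Brachypodium identifiers the digit before the g is the chromosome and locus numbers follow the order along it, so a run of numbers stands for a run of neighbours. The RefSeq gene table used here matched 0 of the 93 identifiers, and neither a gene name, a function, a genome position nor a sequence is given for any of them. For the same reason the labelled tissue was not checked against leaf markers.

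Depth was 13825916 to 16520046 counted reads per library. Of the 93 loci, 63 had enough reads to test, 16 had reads but too few, and 14 had no read in any library. Of all 35125 listed loci 21456 were tested, which is 61.1%, against 67.7% in the window. Loci without a read made up 15.1% of the window and 16.1% of chromosome 2.

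In Bd21-3, BRADI_2g60970v3 was counted 6899 times in replicate 1 and 6382 times in replicate 2. In jmj1-1 it was counted 232 and 189 times. Both mutant libraries lay far below both wild-type libraries, and within a genotype the replicates were close. As CPM, the reads of a locus relative to the scaled total of its library, the wild-type level was 414.3 ± 16.2 (SD, n = 2) and the mutant level 13.8 ± 0.597 (SD, n = 2). The ratio of the summed reads after scaling was 30.0, with an exact 95% Clopper-Pearson interval of 27.2 to 33.1 that covers counting error only. By number of reads the locus ranked 247 and 268 among all loci in the wild type and 10390 and 10778 in the mutant. In RNA from whole leaves, fewer cells of a type and less RNA per cell cannot be told apart.

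Reads of BRADI_2g61050v3 numbered 735 and 698 in Bd21-3, against 51 and 47 in jmj1-1. Again the 2 genotypes did not overlap. Both loci were chosen for such a difference, and 50.9% of all tested loci did not overlap either. The mean was 44.7 ± 0.916 CPM for the wild type and 3.22 ± 0.141 CPM for the mutant, a ratio of 13.9 (95% interval 11.3 to 17.2). Neither locus lost all its reads in the mutant, since each kept some in both jmj1-1 libraries. Whether these came from the 2 loci themselves or from similar or overlapping loci was not tested.

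The drop was of unequal size at the 2 loci. For each read of BRADI_2g61050v3 there were 9.39 and 9.14 reads of BRADI_2g60970v3 in wild-type libraries but 4.55 and 4.02 in mutant libraries. The log2 change from Bd21-3 to jmj1-1 was -4.91 for BRADI_2g60970v3 and -3.79 for BRADI_2g61050v3. These were the 8th and the 12th lowest of all tested log2 changes. Low ranks follow from the way the pair was chosen and are given as a description.

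**Figure D1:**
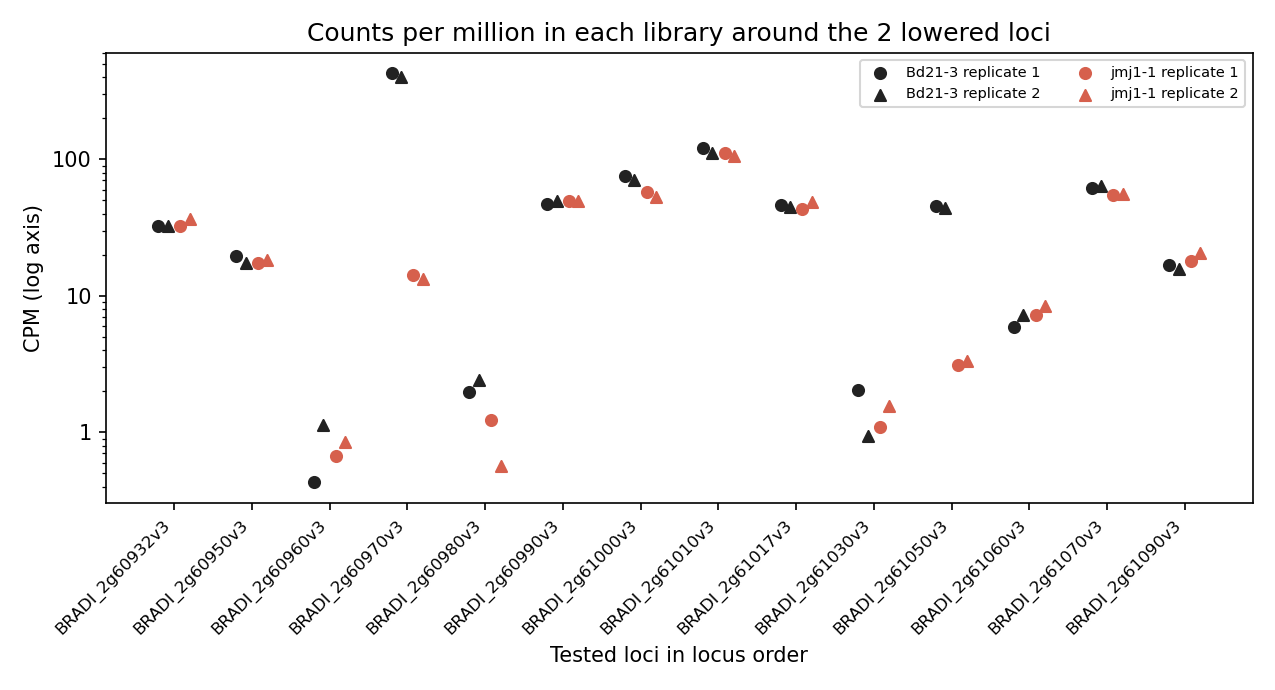
CPM on a log axis for each of the 4 libraries (black for Bd21-3, red for jmj1-1, circles for replicate 1, triangles for replicate 2) at tested loci in locus order, from the third before BRADI_2g60970v3 to the third after BRADI_2g61050v3. The libraries of the genotypes stand far apart at those 2 loci, at 414.3 against 13.8 CPM and 44.7 against 3.22 CPM, and lie close together at most of their neighbours. The 2 loci were chosen for this gap.

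Between the 2 loci the table lists 8 others, of which 6 were tested. In edgeR's quasi-likelihood test over all loci, with Benjamini-Hochberg adjustment, 2 of the 6 fell in jmj1-1, 4 did not pass and none rose. Of all tested loci 13.9% passed, 7.75% being lower and 6.13% higher. With 6 loci, no more is read from this share.

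BRADI_2g61000v3 fell from 1218 and 1126 reads in Bd21-3 to 937 and 747 in jmj1-1. That is 73.1 ± 2.89 CPM against 55.1 ± 3.23 CPM, or -0.41 as a log2 change (SE 0.0617, adjusted p = 7.49e-07), with both mutant libraries below both wild-type ones. BRADI_2g60980v3, the nearest tested locus after BRADI_2g60970v3, fell from 32 and 38 reads to 20 and 8 reads. At -1.24 (SE 0.366, adjusted p = 0.013), its log2 change was the lowest of the window apart from the 2 chosen loci. Its mutant libraries differed from each other by almost as much, with a log2 ratio of replicate 2 over replicate 1 of -1.11. Without jmj1-1 replicate 2 the log2 change was -0.83 (adjusted p = 0.267) and without Bd21-3 replicate 2 it was -1.10 (adjusted p = 0.0895), and in DESeq2 and without the expression filter the adjusted p was 0.236 and 0.0882, so under these 4 settings it did not pass.

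The other tested loci between the pair differed little. BRADI_2g60990v3 was at 48.3 ± 1.57 CPM in the wild type and 49.6 ± 0.402 CPM in the mutant (adjusted p = 0.809). BRADI_2g61010v3 was at 115.7 ± 6.04 and 108.2 ± 4.66 CPM (adjusted p = 0.262). BRADI_2g61017v3 was at 45.4 ± 1.13 and 45.8 ± 3.72 CPM (adjusted p = 0.966). At these 3 loci the libraries of the genotypes overlapped. BRADI_2g61030v3 also overlapped, with 33 and 15 reads in Bd21-3 and 18 and 22 in jmj1-1 (adjusted p = 0.834). Its ratio of Bd21-3 to jmj1-1 was 1.14 with an interval of 0.734 to 1.78. This interval covers counting error only, and differences inside it, in either direction, remain possible.

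The remaining pair between them had too few reads to test. BRADI_2g60975v3, next in number to BRADI_2g60970v3, had 3 and 3 reads in Bd21-3 and 0 and 0 in jmj1-1. For 6 reads against 0 the exact 95% interval of the Bd21-3 to jmj1-1 ratio began at 1.12 and was unbounded above. BRADI_2g61040v3 had 2 and 0 reads in Bd21-3 and 0 and 0 in jmj1-1, and no ratio is given.

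On the outer sides, the genotypes overlapped at 3 of the 6 nearest tested loci and did not at the other 3, where 50.9% of all tested loci did not overlap. Just before BRADI_2g60970v3, BRADI_2g60960v3 had 7 and 18 reads in Bd21-3 and 11 and 12 in jmj1-1, a log2 change of -0.05 with SE 0.486. BRADI_2g60950v3 was at 18.5 ± 1.60 and 18.0 ± 0.614 CPM (adjusted p = 0.859). BRADI_2g60932v3 was at 32.4 ± 0.143 and 34.6 ± 2.90 CPM (adjusted p = 0.554), with both mutant libraries the higher by a narrow margin. None of these 3 passed the test.

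Just after BRADI_2g61050v3, BRADI_2g61060v3 was at 6.56 ± 0.988 CPM in the wild type and 7.86 ± 0.890 CPM in the mutant (adjusted p = 0.38). BRADI_2g61070v3 fell from 991 and 1005 reads to 893 and 782 reads, or from 62.3 ± 1.62 to 55.0 ± 0.427 CPM, with -0.18 as the log2 change (SE 0.0623, adjusted p = 0.0418). Both mutant libraries were below both wild-type libraries, and the call is close to the threshold. It was lost under 8 of 14 alternatives, at adjusted p-values up to 0.373, among them leaving out Bd21-3 replicate 2 (0.156), jmj1-1 replicate 1 (0.251) or jmj1-1 replicate 2 (0.171). BRADI_2g61090v3 was at 16.2 ± 0.844 and 19.3 ± 1.68 CPM, higher in both mutant libraries, and did not pass (adjusted p = 0.115).

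**Figure D2:**
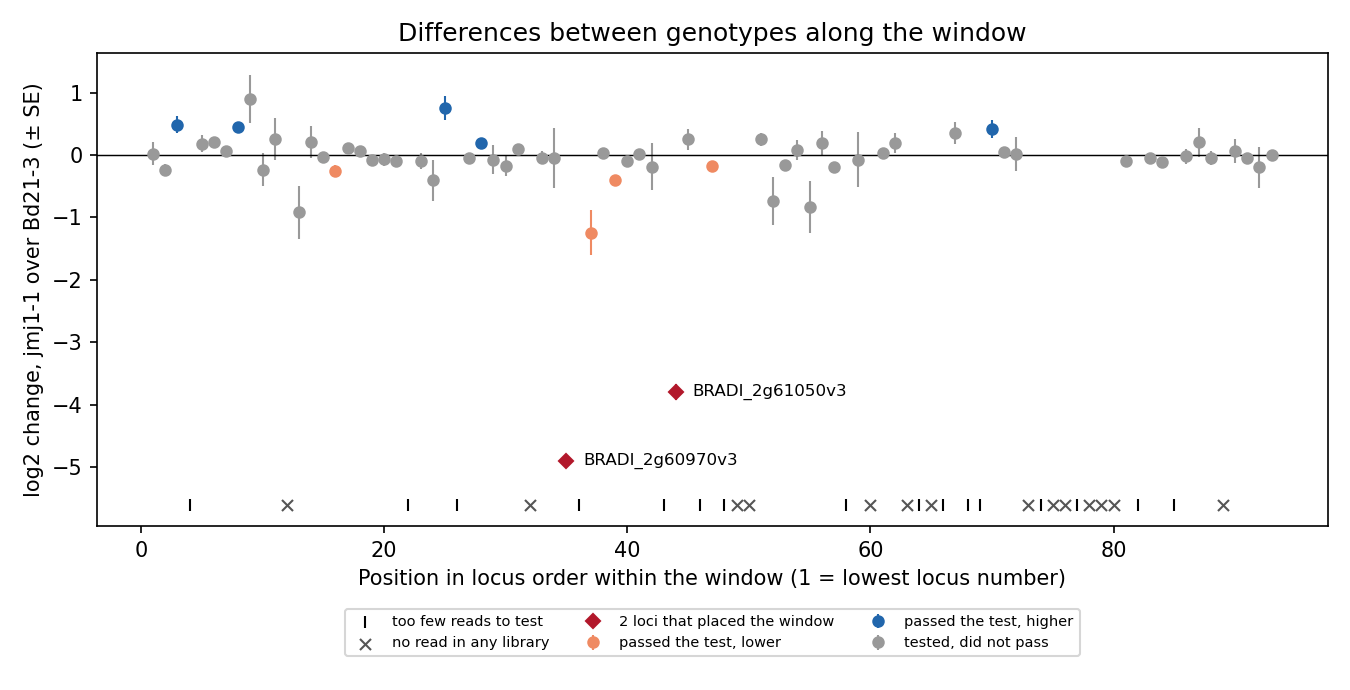
Log2 change of jmj1-1 over Bd21-3 (± SE) for the 63 tested loci by position in locus order, with marks at the bottom for the 16 loci with too few reads and the 14 without a read. The 2 loci that placed the window lie at -4.91 and -3.79, and every other tested locus lies between -1.24 and 0.90. The SE is approximate, and the bars at those 2 loci are not read.

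Away from the pair, changes were small and went both ways. Of the 61 tested loci other than the chosen pair, 5 rose, 4 fell and 52 did not pass, a share of 14.8% passing beside 13.9% of all tested loci. One of the 4 falls, at BRADI_2g60980v3, was of 2-fold or more, and of all tested loci 0.564% fell by that much. None of the 5 rises reached 2-fold, as 1.46% of all tested loci did. Among the 29 tested loci of lower number than the pair, 4 rose and 1 fell. Among the 26 of higher number, 1 rose and 1 fell. Of all tested loci 6.13% rose and 7.75% fell. With the pair included, 5 loci of the window were higher and 6 lower, and with libraries scaled by their totals alone the split was 7 higher and 4 lower. The count of 11 became smaller whichever library was left out, in fits that have less power.

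BRADI_2g60910v3 rose from 2807 and 2834 reads in Bd21-3 to 3273 and 2862 reads in jmj1-1. After scaling that is 176.0 ± 4.01 against 201.4 ± 1.36 CPM, or 0.19 as a log2 change (SE 0.0449, adjusted p = 0.00103). BRADI_2g60750v3 rose from 346 and 311 reads to 447 and 401 reads, a log2 change of 0.44 (SE 0.0904, adjusted p = 1.90e-04). For both, the mutant libraries lay above both wild-type libraries. BRADI_2g60750v3, BRADI_2g60910v3 and BRADI_2g61000v3 passed in each of 14 alternative settings that kept the threshold of 0.05 and tested against no change. None of these loci passed when tested against a fold of 1.5.

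The other 3 rises were less stable. BRADI_2g60898v3 had 74 and 56 reads in Bd21-3 and 116 and 93 in jmj1-1, a log2 change of 0.76 (SE 0.192, adjusted p = 0.00313). Its call was lost without Bd21-3 replicate 2 (adjusted p = 0.0707), without jmj1-1 replicate 1 (0.0556) and in DESeq2 (0.112). BRADI_2g60710v3 had 141 and 151 reads in Bd21-3 and 195 and 193 in jmj1-1, a log2 change of 0.48 (SE 0.134, adjusted p = 0.00754). It was lost without Bd21-3 replicate 1 (adjusted p = 0.0732), without jmj1-1 replicate 2 (0.14), in DESeq2 (0.176) and without the expression filter (0.0534).

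BRADI_2g61240v3 had 183 and 118 reads in Bd21-3 and 205 and 178 in jmj1-1, a log2 change of 0.42 (SE 0.142, adjusted p = 0.0352). After scaling, Bd21-3 replicate 1 lay at 11.3 CPM, near the 12.6 CPM of each mutant library, and Bd21-3 replicate 2 at 7.45 CPM. Without Bd21-3 replicate 2 the log2 change was 0.15 (adjusted p = 0.622), so the rise rested on that library. Without jmj1-1 replicate 1 or 2 it was not called either (0.113 and 0.0916), nor in DESeq2 (0.411) or without the filter (0.228).

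The fall of BRADI_2g60810v3 was also near the threshold. It had 463 and 454 reads in Bd21-3 and 375 and 355 in jmj1-1, which is 28.6 ± 0.0613 against 24.0 ± 1.51 CPM and a log2 change of -0.25 (SE 0.0867, adjusted p = 0.0376). This call was lost under 7 of 14 alternatives, among them each of the 4 left-out libraries, at adjusted p-values of 0.0853 and 0.0834 without Bd21-3 replicate 1 or 2 and 0.385 and 0.0544 without jmj1-1 replicate 1 or 2.

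Among the 52 loci that did not pass, 28 log2 changes were below 0 and 24 above, and 9 loci had an unadjusted p under 0.05. Of the 52, 48 lay within 0.5 of no change on the log2 scale. The 4 beyond it were chosen for mention after their values were seen, and they had at most 80 reads over all libraries. BRADI_2g60755v3 had 15 and 13 reads in Bd21-3 and 24 and 26 in jmj1-1 (adjusted p = 0.12). BRADI_2g60780v3 had 24 and 18 against 12 and 9 (adjusted p = 0.169), BRADI_2g61130v3 31 and 16 against 11 and 14 (adjusted p = 0.204), and BRADI_2g61100v3 29 and 22 against 13 and 16 (adjusted p = 0.232). At all 4 the libraries of the genotypes did not overlap, where 50.9% of all tested loci did not. The 4 were picked for the size of their change, which favours such a gap, so no more is read from it.

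**Figure D3:**
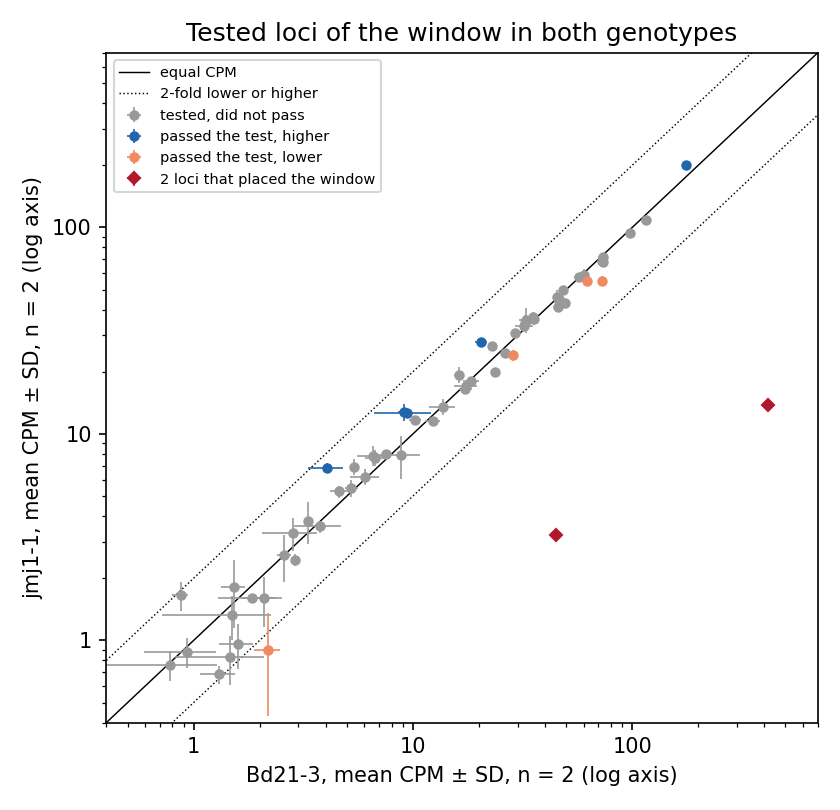
Mean CPM in Bd21-3 (horizontal) and jmj1-1 (vertical) of the 63 tested loci on log axes, with SD bars (n = 2) and lines for equal CPM and for a 2-fold difference. The 2 loci that placed the window lie far below the lower 2-fold line, as their choice required, and BRADI_2g60980v3 is the passing locus beyond it among the others.

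The difference between genotypes was compared with the difference between replicates at the 61 other tested loci. At 24 of them, 39.3%, the absolute log2 change was larger than both replicate differences, against 38.3% of all tested loci. The genotypes did not overlap at 29, with jmj1-1 lower at 16 and higher at 13. Over the whole table, jmj1-1 was lower without overlap at 25.3% of tested loci and higher at 25.5%. The median absolute log2 change of the 61 loci was 0.157, against a median absolute log2 ratio between replicates of 0.132 in Bd21-3 and 0.128 in jmj1-1. Over all tested loci these medians were 0.137, 0.118 and 0.111. At the 2 chosen loci the replicates differed by at most 0.0895 on the log2 scale.

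**Figure D4:**
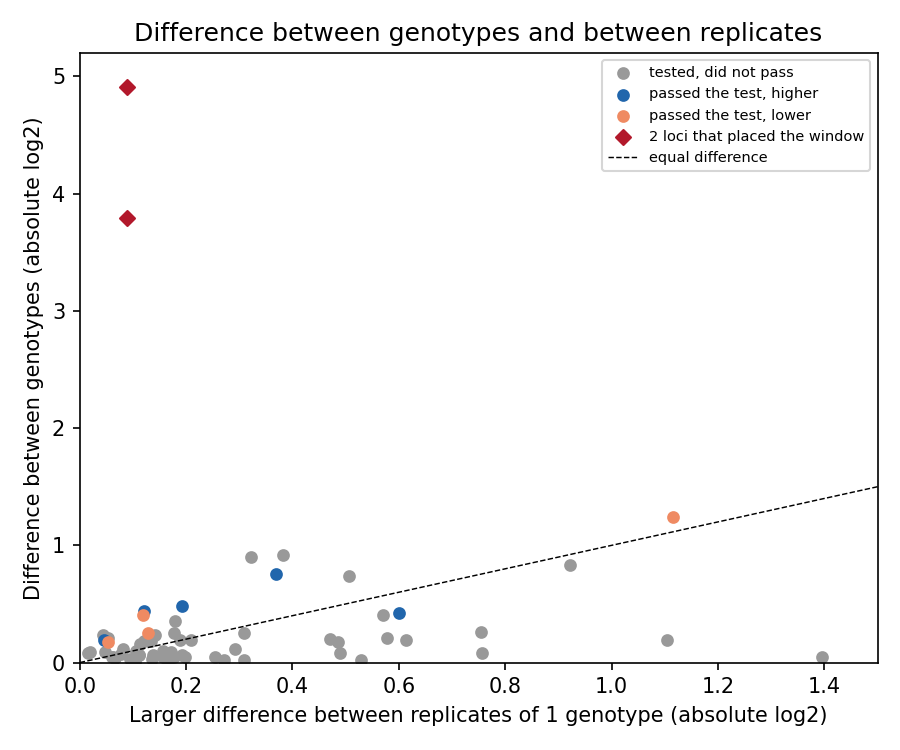
Absolute log2 change between genotypes (vertical) against the larger absolute log2 ratio between replicates of 1 genotype (horizontal) for the 63 tested loci, with a line where both are equal. The 2 loci that placed the window stand at the top left, with log2 changes of -4.91 and -3.79 before the sign is dropped. Their height follows from how they were chosen, while their replicate differences, of at most 0.0895, played no part in the choice. Of the 61 others, 24 lie above the line.

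Summed over the window without the 2 chosen loci, reads came to 1689 and 1664 CPM in the wild type and 1656 and 1671 CPM in the mutant, so the genotypes overlapped. With the pair included the sums were 2160 and 2111 CPM in Bd21-3 and 1673 and 1688 CPM in jmj1-1. The pair took 21.8% and 21.2% of the window's reads in Bd21-3, and 1.04% and 0.989% in jmj1-1. Most of the pair's share belonged to BRADI_2g60970v3, which alone took 0.0418% and 0.0396% of all counted reads in the Bd21-3 libraries.

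By reads, the 5 leading loci of the window over all 4 libraries were BRADI_2g60970v3, BRADI_2g60910v3, BRADI_2g61010v3, BRADI_2g61310v3 and BRADI_2g60800v3. Gene lengths were not matched, so this is an order of reads and not of transcript levels. BRADI_2g61310v3 was at 97.6 ± 2.93 CPM in the wild type and 94.1 ± 1.13 CPM in the mutant (adjusted p = 0.626). BRADI_2g60800v3 was at 73.3 ± 3.41 and 71.6 ± 0.996 CPM (adjusted p = 0.811). Within Bd21-3 the fifth place belonged to BRADI_2g61320v3, at 73.8 CPM against 73.3 for BRADI_2g60800v3, a gap smaller than their spread. Within jmj1-1, BRADI_2g60970v3 at 13.8 CPM was not among the leading 5, and BRADI_2g60910v3 had the most reads.

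Neighbouring windows of the same width in locus numbers were used for comparison. In the window of lower numbers 9 of 59 tested loci passed, 15.3%, with 3 lower and 6 higher. In the window of higher numbers 6 of 59 passed, 10.2%, with 4 lower and 2 higher. Neither held a passing locus that fell by 2-fold or more, and the window of lower numbers held 4 that rose by that much. Of all tested loci 0.564% passed and fell by 2-fold or more, and 1.46% passed and rose by as much. The central window was placed around the pair, so its own falls cannot be set against these counts. No test of a difference between windows was made. The median log2 change was -0.04 over the 63 tested loci of the central window, -0.03 without the pair, 0.03 and 0.02 in the windows of lower and higher numbers, 0.01 over chromosome 2 and 0.00327 over all tested loci.

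The edges of the window are set by number alone. BRADI_2g60700v3, the first member, was at 6.08 ± 0.918 and 6.20 ± 0.536 CPM, and BRADI_2g60690v3 just outside was at 22.8 ± 0.253 and 23.4 ± 0.280 CPM. BRADI_2g61400v3, the last member, was at 57.4 ± 2.92 and 57.5 ± 0.295 CPM, and BRADI_2g61410v3 just outside was at 131.0 ± 9.24 and 113.9 ± 0.969 CPM, in Bd21-3 and jmj1-1 in that order. The log2 change of BRADI_2g61410v3 was -0.20, and those of the other 3 edge loci were 0.04, 0.02 and 0.00.

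The 16 members with too few reads to test held 32 and 36 reads in all in the wild type and 35 and 36 in the mutant. Single loci among them had 1 to 39 reads over all 4 libraries. In jmj1-1, 4 of them had no read, and in Bd21-3, 2 had none. BRADI_2g61065v3, between BRADI_2g61060v3 and BRADI_2g61070v3 in number and picked out after its values were seen, had 5 and 3 reads in Bd21-3 and 0 and 1 in jmj1-1. Its ratio was 7.61 with an interval of 1.02 to 337.5, which covers counting error only and makes no allowance for the picking. Others of the 16 had more reads in jmj1-1, such as BRADI_2g60880v3 with 7 and 7 in Bd21-3 against 9 and 16 in jmj1-1.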

How the data were processed

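Values deposited by the authors are raw counts, whole numbers of reads per locus in a column for each library, per the file header. Named in the submitters' processing notes are featureCounts, HISAT2, cutadapt and SAMtools. The sources used here do not give versions, genome build, annotation release, strand setting or the treatment of reads with several matches, so reads of overlapping, antisense or near-identical loci could have been split or shared. The library kit was stranded, per the labels' protocols.

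Column names equal the sample titles. The test was run with edgeR 4.0.16 (R 4.3.3): filterByExpr at its defaults (minimum count 10), TMM scaling, and a two-sided quasi-likelihood F-test of genotype over all 21456 kept loci, with Benjamini-Hochberg adjustment and a threshold of 0.05. CPM used TMM-scaled totals. SE is the absolute log2 change over the square root of F, an approximation, and none is quoted for the chosen pair. Ratios are of summed reads, with exact intervals. Alternatives used DESeq2 1.42.0, limma 3.58.1, other scalings and filters, a replicate block and left-out libraries. A stricter threshold and a test against a fold of 1.5 are not among the 14 alternatives counted for single loci.

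Members and lists were chosen with earlier results of these data known. Named loci were the chosen pair, the loci between them, the 3 tested loci on either side, other called loci and the 5 with most reads.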

Additional observations from a re-analysis of the deposited data

How the results depend on the processing

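The pair that placed the window ranged from -4.95 to -4.85 and from -3.83 to -3.74 on the log2 scale over 14 alternatives. Counts of called loci, given as whole table, window, window lower and window higher, were 2978, 11, 6 and 5, the pair included. They were 1788, 6, 3 and 3 without the expression filter and 1283, 5, 3 and 2 in DESeq2. At an adjusted p of 0.01 they were 1954, 7, 3 and 4, and against a fold of 1.5 they were 276, 2, 2 and 0. The 2 loci left were the pair, which was chosen by this same contrast, so nothing is read from their passing. The stricter threshold and the fold test give fewer calls by construction. With 1 library left out they ranged from 1791 to 2856, 6 to 9, 3 to 5 and 3 to 4, and such fits have less power, the lone library being assumed to vary like the other genotype. For DESeq2 and the filter the cause was not tested. The window's median log2 change of -0.04 was 0.00863 with library totals alone, which moved the median of all loci to 0.0566, and ranged from -0.0361 to 0.0135 with 1 library left out. Totals alone called 7 higher and 4 lower, adding BRADI_2g60730v3 and BRADI_2g61090v3 (adjusted p = 0.0406 for the latter), losing BRADI_2g60810v3 (0.117) and BRADI_2g61070v3 (0.184), and turning BRADI_2g60800v3 to 0.0205, BRADI_2g60950v3 to 0.00791, BRADI_2g60960v3 to 0.0059 and BRADI_2g61310v3 to 0.00199. Other reversals were at loci that did not pass in either setting. BRADI_2g60960v3 was at 0.0987 in limma-voom. With 1 library left out, log2 changes ranged from -0.59 to 0.79 at BRADI_2g60960v3, -0.63 to 0.47 at BRADI_2g61030v3, -0.13 to 0.0442 at BRADI_2g60950v3, -0.0812 to 0.0135 at BRADI_2g60800v3 and -0.071 to 0.0926 at BRADI_2g61017v3. With the replicate block, 3140 loci were called, 11 of them in the window, and no call of a named locus changed. Libraries of the same number did not deviate together (correlation -0.0158), and the labels state no pairing. The older quasi-likelihood method of edgeR, chosen after seeing the data, gave 2956 calls and the same 11 loci. At 13825916 to 16520046 reads per library, loci with under 100 reads in all, such as BRADI_2g60980v3, are held with low precision.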

Other observations

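Along the window, among 62 pairs of tested neighbours the direction of the log2 change switched at 34, and the longest run of 1 direction was 6 loci, which occurred 2 times. One such run, with jmj1-1 higher, reached from BRADI_2g60710v3 to BRADI_2g60755v3 and held 2 of the 5 rises. The other, also with jmj1-1 higher, reached from BRADI_2g61180v3 to BRADI_2g61270v3 and held the rise of BRADI_2g61240v3. Neither run lengths nor switches were compared with other parts of the chromosome.

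In the window 14 of 35 loci whose number does not end in 0 had enough reads to test, 40%, against 49 of 58 whose number ends in 0, 84.5%. On chromosome 2 the shares were 42% and 80%.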
